A study of Mus musculus with 23 samples.

Results

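Of 53607 gene rows measured in mouse embryonic stem cells, 5 genes of the two-cell-like state were followed here: Zscan4c, Zscan4d, Zscan4f, Zfp352 and Tcstv3. They were taken by name, with earlier results of these data known, and all 5 passed the filter on low counts. The counts of Zscan4a to Zscan4f were also added up, because the members of that family are nearly identical in sequence and share reads.

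The two-cell-like state is a rare and passing condition of embryonic stem cells, in which genes normally read in the cleaving embryo are switched on. Zscan4 proteins carry a SCAN domain and zinc fingers, and are known for their part in telomere lengthening and genome stability in these cells. Zfp352 encodes a zinc finger protein, and Tcstv3 belongs to a small family whose transcripts were named for their presence in the two-cell embryo. The homeodomain factor DUX is known as an activator of this programme, upstream of Zscan4.

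RNA was sequenced from 23 cultures of a Raslox/lox line, in which H-Ras-/- and N-Ras-/- alleles and the inducible recombinase Ubiq-CreERT2, driven by a ubiquitin promoter, are shared by all groups. RAS proteins pass growth factor signals to the kinase ERK, and ERF is an ETS-family repressor that ERK inactivates. In the groups called RAS deleted the cells had been given 4-hydroxytamoxifen for 6 days. The drug and the deletion cannot be told apart, since no RAS-present group received the drug. Cells were wild type or labelled knockout for ERF, and were held in 2iL (inhibitors of MEK and GSK3 with LIF, which keeps ground-state cells) or placed for 48 h in FA (FGF2 and Activin A, which moves them toward epiblast-like cells). These 3 factors give 8 groups of 3 libraries each, except the ERF wild type, RAS present group in FA, which has 2. How many clones stand behind the ERF knockout is not given in the sources used here, nor is what a replicate number stands for, so p-values measure the spread between these cultures.

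Total counts ran from 16.2 to 29.9 M per library. With RAS, mitochondrial genes took 3.36 to 3.40% of counts under the ERF knockout label in 2iL, against 2.35 to 2.85% in ERF wild type. In FA with RAS they took 3.65 to 3.99% against 2.98 to 3.10%. Without RAS in 2iL they took 2.84 to 2.90% against 2.93 to 3.12%. The part of this share in the results was not tested. The pluripotency genes Pou5f1, Sox2 and Sall4 summed to between 577 and 1189 CPM (counts scaled to library size, with TMM factors) in every library, while 4 fibroblast markers summed to at most 8.41 CPM. Erf RNA ran from 56.5 to 90.2 CPM in the 11 ERF wild type libraries and from 49.3 to 172 CPM in the 12 libraries labelled ERF knockout. It was higher in the latter in 2iL (log2 fold change 0.58 ± 0.13 SE with RAS, edgeR adjusted p = 0.00218) and did not differ past the test in FA, so its level does not check the ERF label. Some cultures stood apart across groups. Replicate 1 had the highest Zscan4 sum in all 4 ERF wild type groups, and its median chromosome 8 gene was 0.14 to 0.22 above the group mean in log2(CPM + 1). Replicate 3 had the lowest sum in all 4 groups labelled ERF knockout. In bulk RNA, a larger share of cells in the two-cell-like state and more RNA per such cell cannot be told apart.

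The 3 Zscan4 members lie within a cluster of 9 family genes on mouse chromosome 7 (GRCm38, the mm10 build named in the submitters' processing notes), which spans chr7:10794242-11614112. Zscan4c lies on the plus strand at chr7:11005745-11010547, Zscan4d on the minus strand at chr7:11161374-11166159 and Zscan4f on the plus strand at chr7:11397915-11402318. Zfp352 is at chr4:90218820-90225702 and Tcstv3 at chr13:120316878-120318178, both on the plus strand. All 5 are annotated as protein coding in GENCODE M21. The coding sequences of Zscan4c and Zscan4f are 1518 bases long and 99.6% identical, with 6 differing positions, and Zscan4d is 97.69% identical to either. Along the 3 of them the longest run without any difference has 233 bases. A stretch of 75 bases, the length of 1 read, is shown from coding positions 1046 to 1120, because it is the window where even the closest pair differs most. Capitals mark the 8 positions at which at least 1 of the 3 differs.
Zscan4c: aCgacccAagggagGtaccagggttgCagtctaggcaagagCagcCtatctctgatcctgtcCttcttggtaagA
Zscan4d: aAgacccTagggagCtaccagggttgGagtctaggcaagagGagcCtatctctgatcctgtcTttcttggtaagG
Zscan4f: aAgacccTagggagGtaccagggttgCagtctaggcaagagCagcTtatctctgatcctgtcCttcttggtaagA

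Over whole transcripts, 7.58% of the 75-base words of Zscan4f occur in no other gene of the annotation, against 21.4% for Zscan4c and 60.5% for Zscan4d. For Zfp352 the figure is 97.1% and for Tcstv3 85.7%. The split of counts among Zscan4 rows is therefore uncertain, least so for Zscan4d, and the sum carries the main results. Zscan4f had the largest mean share of that sum in every group, while Zscan4c and Zscan4e changed places with the medium in 3 of the 4 lines. In cells labelled ERF knockout without RAS, for example, Zscan4c took a mean of 20.8% and Zscan4e 17.8% in 2iL, against 16.3% and 23.2% in FA. Over the 23 libraries Zscan4f took 29.1 to 41.8% of it (median 36.4%), Zscan4c 14.7 to 26.9%, Zscan4e 15.8 to 24.6% and Zscan4d 5.35 to 11.7%.

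The 150 bases before the start of the RefSeq transcript (GRCm38.p6) are given for members with an entry, since the Zscan4 rows moved together. Capitals mark 2 sets of letters that were searched on both strands. They are TATAA, the usual core of a TATA box, and GATTNNATC, inner letters of the longer site known for mouse DUX, which here was found on the opposite strand and so reads GATAGAATC. The coordinates are chr7:11005595-11005744 on the plus strand for Zscan4c, chr7:11166149-11166298 on the minus strand for Zscan4d, chr7:11397765-11397914 on the plus strand for Zscan4f, and chr4:90218670-90218819 on the plus strand for Zfp352.
Zscan4c: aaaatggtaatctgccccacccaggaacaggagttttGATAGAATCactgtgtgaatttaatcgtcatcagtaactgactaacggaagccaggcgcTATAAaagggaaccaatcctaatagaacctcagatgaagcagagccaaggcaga
Zscan4d: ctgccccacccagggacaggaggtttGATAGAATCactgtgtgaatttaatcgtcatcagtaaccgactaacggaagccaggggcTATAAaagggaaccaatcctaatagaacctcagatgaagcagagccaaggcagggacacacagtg
Zscan4f: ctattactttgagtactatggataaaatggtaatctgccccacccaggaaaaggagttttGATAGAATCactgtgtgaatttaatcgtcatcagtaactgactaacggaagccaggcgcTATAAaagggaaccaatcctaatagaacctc
Zfp352: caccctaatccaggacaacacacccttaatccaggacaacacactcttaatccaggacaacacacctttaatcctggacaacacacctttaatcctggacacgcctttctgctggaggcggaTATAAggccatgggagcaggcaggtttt

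All 3 Zscan4 members hold GATTNNATC once in the 250 bases before the start, where it does not overlap TATAA. Those stretches are near copies of each other, 96.76 to 99.56% identical over 216 to 239 aligned bases, so the 3 matches are not separate occurrences. Over all genes the match was found in 1.394% of 32851 windows of that length. The match begins 113 bases before the start in Zscan4c, 124 in Zscan4d and 90 in Zscan4f. TATAA was found in 22.785% of all windows, and begins 54 bases before the start in Zscan4c, 65 in Zscan4d and 31 in Zscan4f. Zfp352 holds TATAA, 28 bases before its start, and not GATTNNATC. Of the 33 other genes of the programme considered below, 13 had an entry, and 4 of these held GATTNNATC, namely Zscan4b, Duxf3, Gm21761 and Sp110. A match of letters is a description and shows no binding.

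Expression of the Zscan4 genes was lowest in ERF wild type cells with RAS in 2iL, and every other group stood above it. In that group the Zscan4 sum was 29.4, 14.5 and 18.5 CPM in the 3 libraries, or 20.8 ± 7.71 CPM (SD, n = 3). Moving up by group mean, it was 71.9 ± 33.5 (n = 2) for the same cells in FA, 111 ± 26.1 for ERF wild type cells without RAS in 2iL, and 162 ± 76.3 for cells labelled ERF knockout with RAS in 2iL (n = 3 from here on). Next came cells labelled ERF knockout without RAS, at 193 ± 79.1 CPM in FA and 209 ± 94.7 CPM in 2iL, then those with RAS in FA at 248 ± 93.0 CPM. ERF wild type cells without RAS in FA had the highest mean and the widest spread, 331 ± 225 CPM. Only the lowest group was separated from its neighbour in this order: each later pair of neighbouring groups overlapped.

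**Figure D1:**
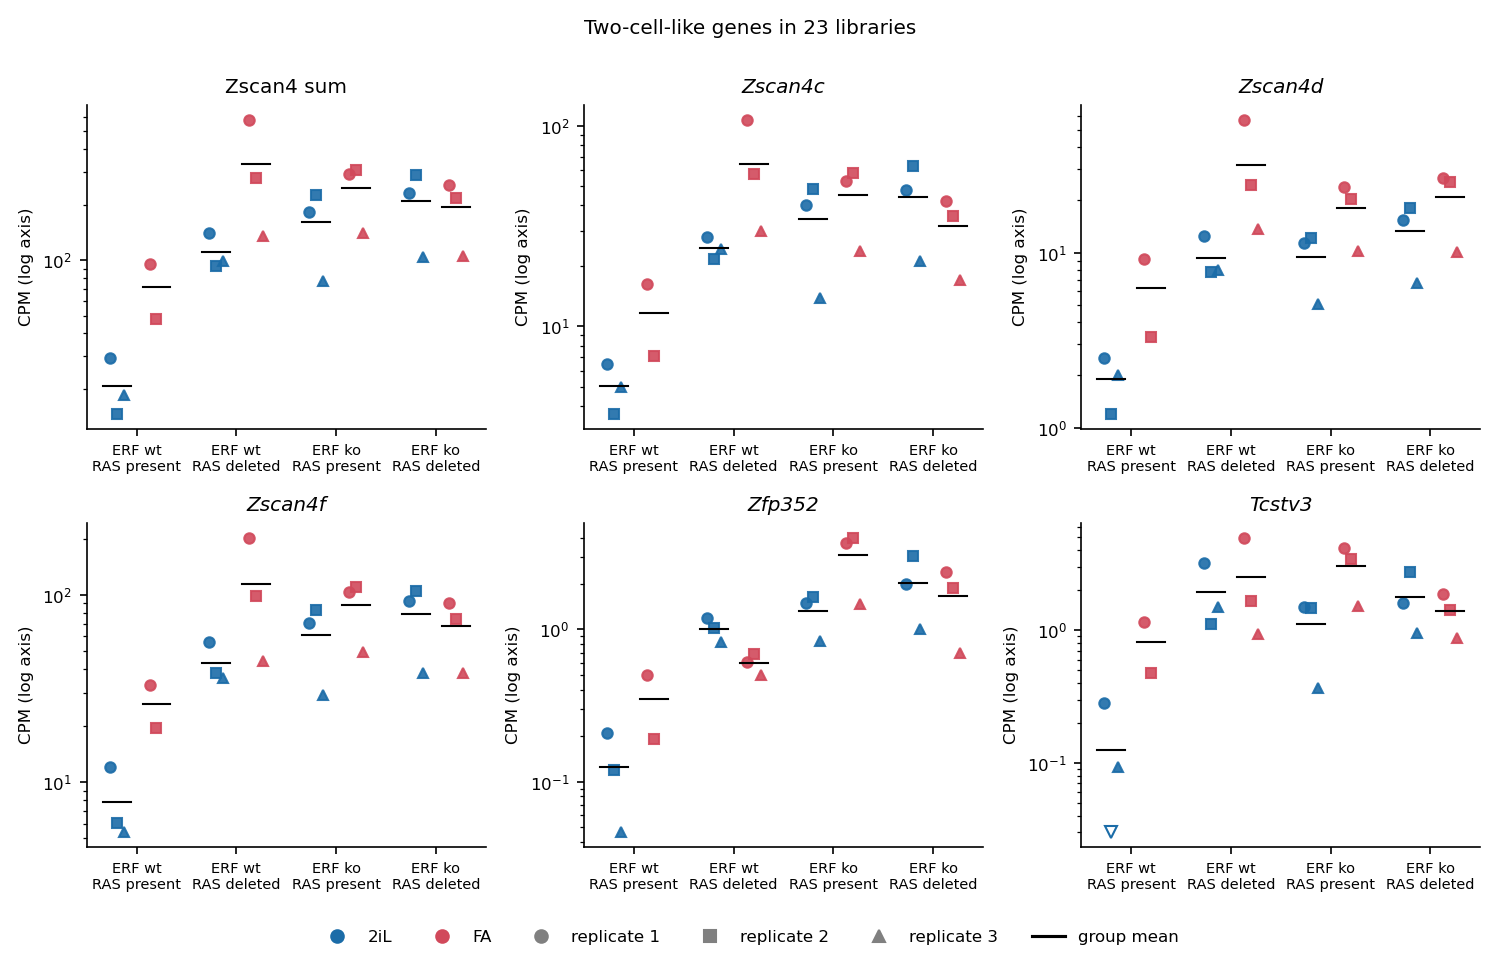
Level of the Zscan4 sum and of the 5 members in each of 23 libraries, as CPM on a log axis, by line and medium; points are libraries, bars are group means, and the open triangle stands for a Tcstv3 count of 0. The 3 blue points of ERF wild type cells with RAS in 2iL have the lowest group mean in every panel, with a Zscan4 sum from 14.5 to 29.4 CPM.

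Compared per transcript length, in the authors' TPM, the members differed widely in level. In ERF wild type cells with RAS in 2iL, Zscan4f stood at 5.09 ± 2.20 TPM, Zscan4c at 2.19 ± 0.53 TPM and Zscan4d at 0.82 ± 0.26 TPM. Tcstv3 was at 0.19 ± 0.21 TPM and Zfp352 at 0.076 ± 0.046 TPM in that group (SD, n = 3 each). In ERF wild type cells without RAS in FA the levels were 82.4 ± 49.1 TPM for Zscan4f, 31.2 ± 16.4 TPM for Zscan4c and 15.3 ± 9.66 TPM for Zscan4d, beside 4.14 ± 3.16 TPM for Tcstv3 and 0.36 ± 0.10 TPM for Zfp352. Zfp352 and Tcstv3 therefore rest on few reads, with 1 to 92 and 0 to 113 counts per library.

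In 2iL these genes were higher after RAS deletion in ERF wild type cells. The ERF wild type, RAS present group in 2iL is also the baseline of the ERF comparison and of 1 medium comparison below, so those results share its 3 libraries. The Zscan4 sum was 141, 93.4 and 98.7 CPM without RAS, so every library lay above the 14.5 to 29.4 CPM of the RAS-present libraries. This is a log2 fold change of 2.40 ± 0.61 (SE), or 5.26-fold, with an edgeR adjusted p of 0.0316. Zfp352 was 1.18, 1.01 and 0.82 CPM without RAS against 0.21, 0.12 and 0.05 CPM with it, a rise of 2.86 ± 0.66 (adjusted p = 0.0140). Tcstv3 was 3.17, 1.12 and 1.50 CPM against 0.28, 0 and 0.09 CPM, where a count of 0 allows up to 0.179 CPM. Its fitted change was 3.67 ± 0.91 (adjusted p = 0.0248), and groups did not overlap for either gene.

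Zscan4f rose by the same test (2.43 ± 0.64, adjusted p = 0.0381), whereas Zscan4c (2.24 ± 0.65, adjusted p = 0.0552) and Zscan4d (2.25 ± 0.70, adjusted p = 0.0735) missed it with nearly the same fold. In edgeR 3 of 5 members were called, at an adjusted p under 0.05 and at least 2-fold, and all 5 had separate ranges. Of all tested rows 1.20% were called in this comparison. No naive, epiblast-like or primitive endoderm marker was called in it. The trophoblast marker Cdx2, at a mean of 0.33 CPM over all libraries, was called higher (3.02 ± 0.64, adjusted p = 0.00846). Its part in the result was not tested. Same-numbered libraries deviated together here (r from 0.35 to 0.52 over genes). Fits with the replicate number as a block use only the libraries of the groups compared, here and below. With 6 libraries or fewer in a comparison, their p-values lean on spread borrowed from other rows. In such a fit all 5 members were called, with the block (Zscan4c at an adjusted p of 1.27e-07, Zscan4d at 3.82e-06) and without it. The result over all 23 libraries rests on all 6 libraries: leaving out any 1 of them put the adjusted p of the Zscan4 sum between 0.0667 and 0.103, at log2 fold changes of 2.19 to 2.74.

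In FA, the Zscan4 genes of ERF wild type cells were again higher after RAS deletion, while Zfp352 and Tcstv3 did not pass the test. The Zscan4 sum was 577, 281 and 134 CPM without RAS and 95.6 and 48.1 CPM with it. All 3 deleted libraries were higher, by 2.20 ± 0.68 on the log2 scale (4.59-fold, adjusted p = 0.0161). Zscan4c rose by 2.45 ± 0.68 (adjusted p = 0.00915), Zscan4d by 2.31 ± 0.68 (adjusted p = 0.0123) and Zscan4f by 2.12 ± 0.68 (adjusted p = 0.0192). Zfp352 was 0.61, 0.69 and 0.50 CPM without RAS against 0.50 and 0.19 CPM with it, and the ranges met (0.72 ± 0.64, adjusted p = 0.394). Tcstv3 was 4.95, 1.66 and 0.93 CPM against 1.15 and 0.47 CPM (1.57 ± 0.76, adjusted p = 0.110). Here 3 of 5 members were called, where 17.3% of all tested rows were.

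Markers of cell state moved with that result. The naive genes Klf4, Esrrb, Zfp42 and Tfcp2l1 summed to 668 to 961 CPM in ERF wild type cells without RAS in FA, and to between 73.8 and 108 CPM in the 3 other FA groups. All 4 were called higher after RAS deletion, while all 5 primitive endoderm markers (Gata6, Sox17, Pdgfra, Dab2 and Gata4) and 3 of 4 epiblast-like markers were called lower, with the fourth higher. The part of these markers in the result was not tested. A fit of only the 2 groups compared gave the same fold for the Zscan4 sum (2.21) with an adjusted p of 0.120. Without RAS-deleted replicate 1 the change was 1.53 (adjusted p = 0.0725), and without RAS-present replicate 2, which leaves 1 library assumed to vary like the rest, it was 1.81 (adjusted p = 0.144).

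In cells labelled ERF knockout, none of the members passed the test for RAS deletion in either medium, by edgeR or by DESeq2 over all 23 libraries. In 2iL the Zscan4 sum was 182, 226 and 77.2 CPM with RAS and 231, 290 and 105 CPM without it, a difference of 0.37 ± 0.56 (adjusted p = 0.822, 95% interval -0.82 to 1.56). In FA it was 294, 308 and 140 CPM with RAS and 257, 217 and 105 CPM without it (-0.36 ± 0.55, adjusted p = 0.679, 95% interval -1.54 to 0.82). The groups overlapped in both media. None of the 5 members was called in 2iL, where 0.211% of rows were and no member had an unadjusted p under 0.05, nor in FA, where 6.88% were and 1 member did, Zfp352 at -0.87 ± 0.41 (adjusted p = 0.125). In 2iL each numbered culture was higher without RAS than with it. With the replicate block the 0.36 difference had an adjusted p of 8.03e-07 (0.787 in the same libraries without the block), while its size stayed under 2-fold. In FA each numbered culture was lower without RAS, though numbers did not pair libraries there. The block gave -0.38 for the Zscan4 sum (adjusted p = 0.00232, against 0.626 in the same libraries without it) and called Tcstv3 lower.

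Whether RAS loss acted differently by ERF label was tested as an interaction. In FA the RAS effect on the Zscan4 sum was smaller in cells labelled ERF knockout by 2.55 ± 0.86 on the log2 scale (adjusted p = 0.0372). Zscan4c gave -2.95 ± 0.87 (adjusted p = 0.0182) and Zscan4f -2.49 ± 0.86 (adjusted p = 0.0419), so 2 of 5 members were called, beside 13.7% of all rows. The same interaction was called negative for all 4 naive genes and positive for 3 of 4 epiblast-like and 2 of 5 primitive endoderm markers, whose part was not tested. With 1 of the 11 libraries left out in turn, the interaction of the Zscan4 sum ran from -3.16 to -1.88 and lost its call in 7 of 11 fits. Tcstv3 was at -2.67 ± 0.98 (adjusted p = 0.0501), Zscan4d at -2.11 ± 0.86 (adjusted p = 0.0808) and Zfp352 at -1.59 ± 0.76 (adjusted p = 0.127). In 2iL the interaction of the Zscan4 sum was -2.03 ± 0.82 (adjusted p = 0.222). All 5 members had a negative estimate there, and 4 had an unadjusted p under 0.05, as did 3456 of 20372 rows. None was called by edgeR, beside 0.378% of all rows, and DESeq2 called 1. For the 4 interactions of medium neither tool called a member, and at most 1 had an unadjusted p under 0.05. All rows were called at 11.9% for medium by RAS in ERF wild type, 4.59% for medium by RAS in the labelled knockout, 4.27% for medium by ERF with RAS and 11.3% for medium by ERF without RAS.

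In 2iL with RAS, the libraries labelled ERF knockout had higher levels of all 5 members than the ERF wild type libraries. The Zscan4 sum there was 182, 226 and 77.2 CPM under the knockout label against 29.4, 14.5 and 18.5 CPM. The difference was 2.94 ± 0.62 (7.66-fold, adjusted p = 0.00213), with no overlap. All 5 members were higher past the test, beside 9.72% of all rows called. Zfp352, at 1.49, 1.62 and 0.84 CPM under the knockout label, differed most among the members (3.26 ± 0.64, adjusted p = 5.76e-04). Zscan4f differed by 2.93 ± 0.64 (adjusted p = 0.00295), Zscan4c by 2.72 ± 0.65 (adjusted p = 0.00507), Tcstv3 by 2.88 ± 0.97 (adjusted p = 0.0332) and Zscan4d by 2.27 ± 0.70 (adjusted p = 0.0245). With 1 of the 6 libraries left out in turn, the Zscan4 sum kept its call in all 6 fits, at 2.62 to 3.30, as did Zfp352, Zscan4c and Zscan4f. Zscan4d and Tcstv3 lost theirs in 4 of 6 each. Primitive endoderm markers moved with this result: 3 of 5 (Sox17, Pdgfra and Dab2) were called higher, the 5 estimates were positive with a median of 1.32, and their sum was 27.4 to 65.9 CPM under the knockout label against 13.7 to 21.3 CPM. Of the epiblast-like markers Otx2 was called lower (-2.01 ± 0.27, adjusted p = 9.80e-06), and no naive gene was called. The part of all these markers in the result was not tested.

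In FA with RAS, Zfp352 was the member that passed. It was 3.71, 4.00 and 1.47 CPM in libraries labelled ERF knockout and 0.50 and 0.19 CPM in ERF wild type libraries (3.06 ± 0.58, 8.35-fold, adjusted p = 0.00237). The Zscan4 sum was 294, 308 and 140 CPM against 95.6 and 48.1 CPM, higher in every library, with a difference of 1.78 ± 0.67 and an adjusted p of 0.106. Tcstv3 was 4.12, 3.43 and 1.51 CPM against 1.15 and 0.47 CPM (1.85 ± 0.76, adjusted p = 0.135). Ranges were separate for all 5 members. All 5 had an unadjusted p under 0.05, as did 5074 of 20372 rows, while 1 of 5 was called, beside 2.36% of all rows. DESeq2 put the Zscan4 sum past the threshold here (1.79, adjusted p = 0.0238) and called 3 members. Zfp352 kept its edgeR call in all 5 fits that left out 1 library (2.60 to 4.00). Epiblast-like markers summed to 343 to 401 CPM under the knockout label against 548 to 619 CPM, though none was called. The trophoblast marker Eomes was called lower (-1.06 ± 0.19, adjusted p = 0.00150). The part of these markers was not tested.

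Without RAS, the Zscan4 sum did not pass the test for the ERF label. In 2iL the Zscan4 sum was 231, 290 and 105 CPM against 141, 93.4 and 98.7 CPM in ERF wild type cells (0.91 ± 0.56, adjusted p = 0.223), and none of the members was called, beside 13% of all rows, with 1 member under an unadjusted p of 0.05 and none called by DESeq2. In FA the sum was 257, 217 and 105 CPM against 577, 281 and 134 CPM (-0.77 ± 0.56, adjusted p = 0.292), with overlap. Zfp352 alone was called there, and in the opposite direction to the Zscan4 estimate: 2.38, 1.88 and 0.70 CPM against 0.61, 0.69 and 0.50 CPM (1.47 ± 0.47, adjusted p = 0.0148). In that comparison 16.6% of all tested rows were called. All 4 naive genes were called lower (median -3.04) and 3 of 4 epiblast-like markers higher (median 1.79), and their part in the result was not tested. Leaving out 1 library gave Zfp352 changes of 1.10 to 1.83 and ended its call in 2 of 6 fits.

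Passage from 2iL to FA raised the Zscan4 sum in ERF wild type cells. With RAS it went from 29.4, 14.5 and 18.5 CPM to 95.6 and 48.1 CPM, without overlap (1.77 ± 0.65, 3.42-fold, adjusted p = 0.0323). No single member was called by edgeR, beside 24% of all rows called. Of the 5 members 3 had an unadjusted p under 0.05, as did 11164 of 20372 rows. DESeq2 called 3 members, and its share of all rows is not given here. Without RAS it went from 141, 93.4 and 98.7 CPM to 577, 281 and 134 CPM (1.57 ± 0.57, adjusted p = 0.0355). Only the lowest FA library lay within the 2iL range. Zscan4d was the member called (1.76 ± 0.57, adjusted p = 0.0209), where 16.5% of rows were. Zfp352 went the other way without passing, from 1.18, 1.01 and 0.82 CPM to 0.61, 0.69 and 0.50 CPM (-0.74 ± 0.51, adjusted p = 0.258). Cell state markers moved with the medium too. All 4 epiblast-like markers were called higher in FA with and without RAS, and 4 and 3 of the 4 naive genes were called lower, with their part not tested. Of the 5 primitive endoderm markers, 4 were called higher with RAS, and 1 higher and 1 lower without it.

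Both medium results depended on single libraries. With RAS, the change was 1.17 without FA replicate 1 (adjusted p = 0.275), 1.58 without 2iL replicate 2 (adjusted p = 0.0951) and 1.69 without 2iL replicate 3 (adjusted p = 0.0818). Without RAS it was 0.90 without FA replicate 1 (adjusted p = 0.215), and 1.78, 1.46 and 1.50 without 2iL replicates 1, 2 and 3 (adjusted p = 0.0515, 0.103 and 0.0989). Zscan4d lost its call in 3 of 6 such fits. The second comparison is one where replicate numbers pair the libraries, and with the block its adjusted p was 0.0738 at a log2 fold change of 1.37, against 0.0481 at 1.58 in the same 6 libraries without it.

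In cells labelled ERF knockout the Zscan4 sum did not pass the test for the medium over all libraries. With RAS it was 182, 226 and 77.2 CPM in 2iL and 294, 308 and 140 CPM in FA (0.62 ± 0.56, adjusted p = 0.394). Each numbered culture was higher in FA than in 2iL, and with the replicate block the difference of 0.64, under 2-fold, had an adjusted p of 1.28e-05, against 0.424 in the same libraries without it. Zfp352 rose there from 1.49, 1.62 and 0.84 CPM to 3.71, 4.00 and 1.47 CPM (1.21 ± 0.43, 2.31-fold, adjusted p = 0.0253), the 1 member called beside 19.7% of all rows. All 4 epiblast-like and 2 of 5 primitive endoderm markers were called higher there, and all 4 naive genes lower. The part of these markers was not tested. With the replicate block Tcstv3 was called as well (1.45, adjusted p = 1.39e-04), so 2 of 5 were, against 1 in the same libraries without it. The Zfp352 call was lost in 3 of 6 fits that left out 1 library (0.96 to 1.53). Without RAS the Zscan4 sum was 231, 290 and 105 CPM in 2iL and 257, 217 and 105 CPM in FA (-0.11 ± 0.56, adjusted p = 0.882). None of the members was called, beside 24.9% of all rows, and none had an unadjusted p under 0.05 or was called by DESeq2.

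**Figure D2:**
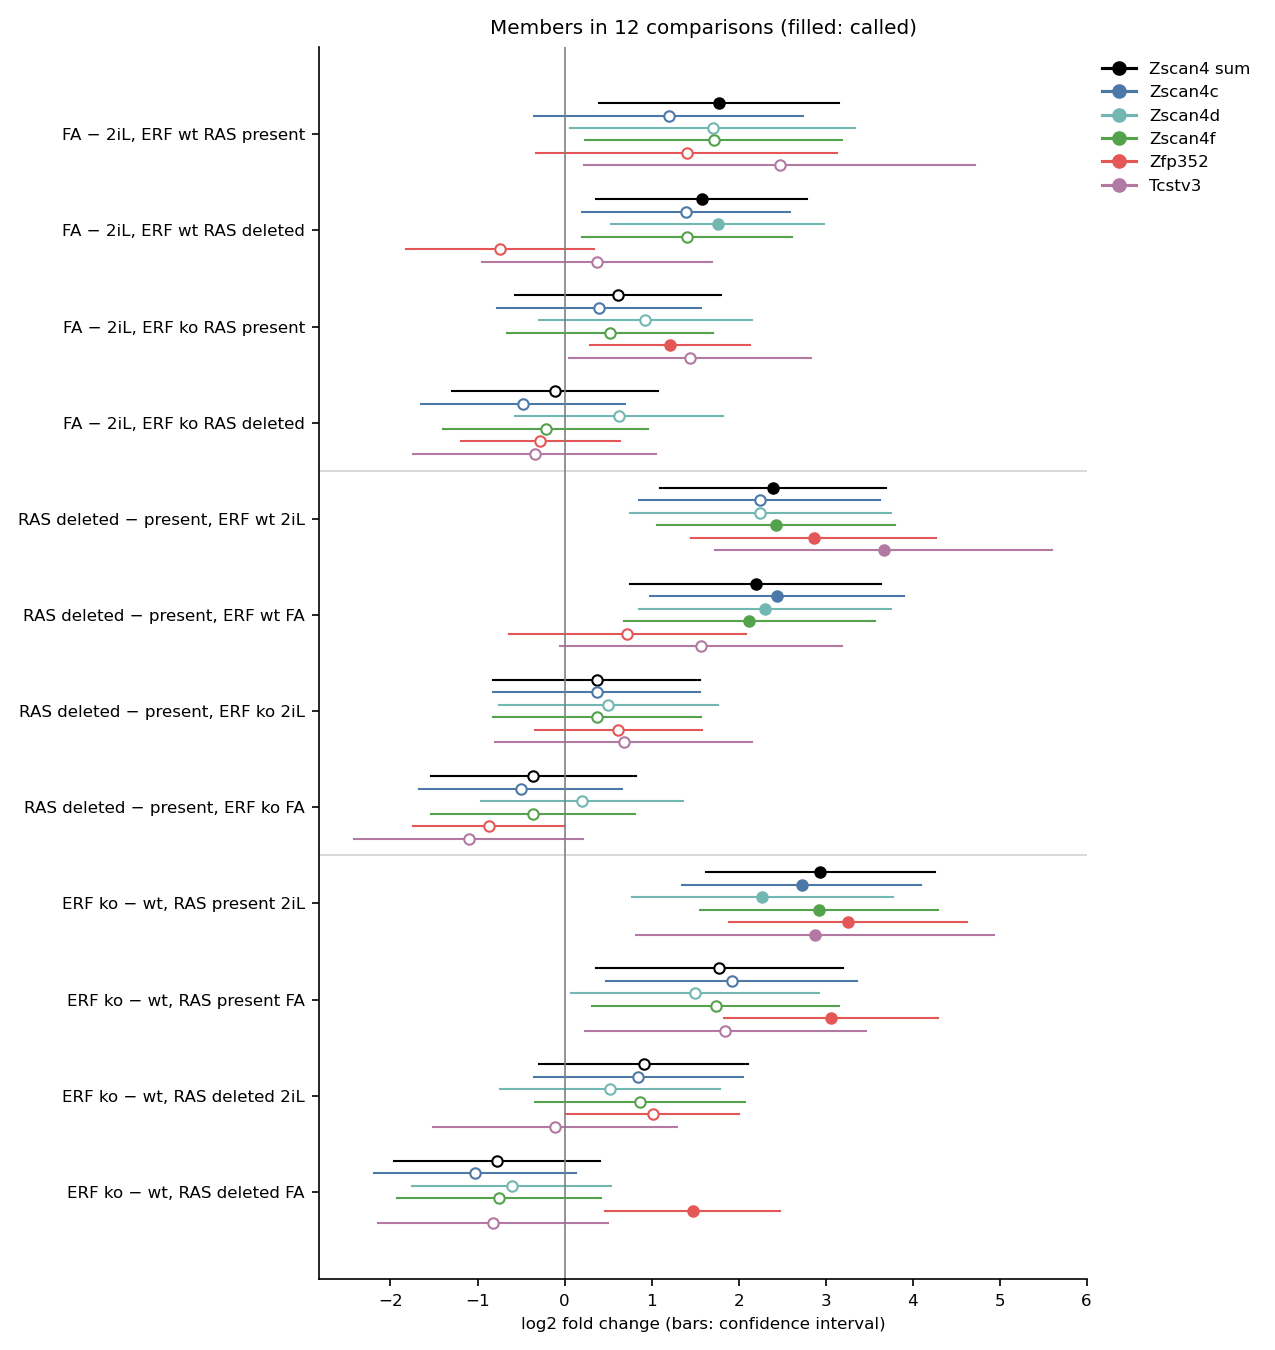
Fold change of the Zscan4 sum and each member in the 12 comparisons, on a log2 axis with 95% intervals from the edgeR fit; filled points were called. The members lie between 2.24 and 3.67 for RAS deletion in ERF wild type 2iL cultures, and between -1.10 and 0.20 for RAS deletion in cells labelled ERF knockout in FA.

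The ratio of Zfp352 to Zscan4 varied between groups. Per 1000 counts of the Zscan4 sum, Zfp352 had 2.42 ± 1.34 counts in ERF wild type cells without RAS in FA (SD, n = 3) and 9.19 ± 1.45 in the same cells in 2iL. It had 12.0 ± 1.34 in cells labelled ERF knockout with RAS in FA and 8.21 ± 1.32 in those without RAS in FA. The library with the highest Zscan4 sum of all 23, at 577 CPM, had the lowest ratio, 1.06. That sum is the divisor of the ratio, so a high sum by itself lowers it. With 0.1 added to each ratio per 1000 counts, its log2 was compared by exact two-sided permutation tests. For ERF wild type cells without RAS in FA against 2iL the permutation test gave p = 0.1, the smallest value that 3 against 3 allows. Adjusted over the 24 such tests of Zfp352 and Tcstv3 it was 0.24, so the design could not place any of them past 0.05. The ratio was examined after the values had been seen.

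**Figure D3:**
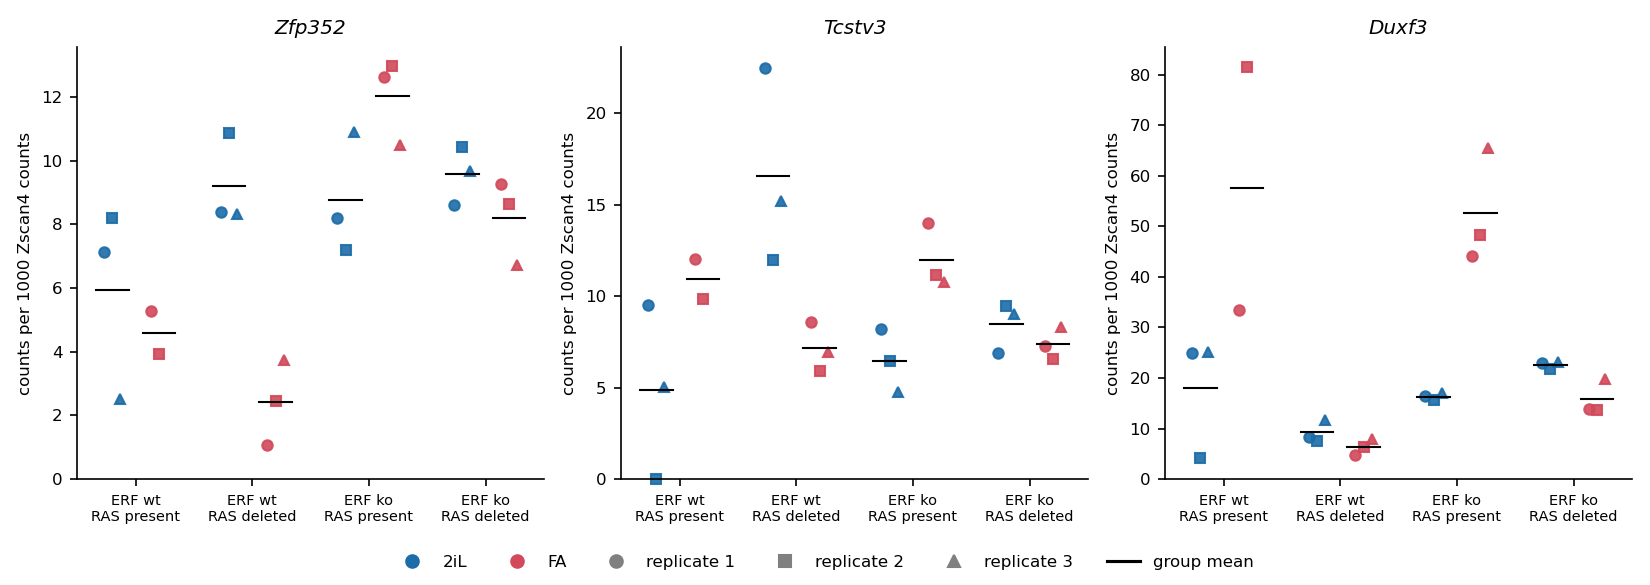
Counts of Zfp352, Tcstv3 and Duxf3 per 1000 counts of the Zscan4 sum in each library, on linear axes from 0; points are libraries and bars group means. Zfp352 is lowest in ERF wild type cells without RAS in FA (1.06 to 3.74), and Duxf3 is highest in the FA groups with RAS (33.5 to 81.6).

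Other genes of the two-cell-like programme were counted in the same fits. A list of 33 was considered, of which 30 passed the low-count filter. It includes Zscan4b, Zscan4e, the rows Zscan4-ps1 to Zscan4-ps3 and Zscan4a, annotated here as an unprocessed pseudogene, whose reads overlap with those of the members, so 24 tested genes lie outside that family. For RAS deletion in ERF wild type cells in 2iL, 7 of 30 were called higher (5 of the 24) and none lower, with a median log2 fold change of 2.12 against 0 over all tested rows, of which 1.20% were called. Zscan4e (2.45 ± 0.68), Gm4027 (2.38 ± 0.65) and Gm5662 (2.12 ± 0.60) were among them. All 30 estimates were positive. In fits of only these 6 libraries, where 26 list genes were tested, 25 were called higher with the replicate block, beside 2.15% of all rows, and 20 without it, beside 1.42%.

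In FA, 14 of 30 were called higher and none lower after RAS deletion in ERF wild type cells, and 10 of the 24 (median 1.65, against 0.0014 over all rows, of which 17.3% were called). A fit of only the 5 libraries compared called 2 of 27 higher, beside 14.8% of all rows. The largest changes among the 10 most abundant list genes were those of the predicted genes Gm5662 (3.30 ± 0.68, adjusted p = 9.48e-04) and Gm2016 (3.22 ± 0.76, adjusted p = 0.00291), and Tmem92, a membrane protein gene, rose by 1.99 ± 0.69 (adjusted p = 0.0301). In cells labelled ERF knockout, none of the 30 was called for RAS deletion in 2iL by edgeR or DESeq2 (median 0.58), beside 0.211% of all rows. There 29 of 30 estimates were positive, and with the replicate block 1 of 27 was called higher, beside 1.26% of all rows, against 0 in the same libraries without the block, beside 0.455%. In FA 8 were called lower and none higher (median -1.04), beside 6.88% of all rows, and those 8 lie outside the Zscan4 family. Of the 5 primitive endoderm markers 4 were called lower there as well (median -1.86), and their part was not tested. The interaction of RAS and ERF in FA was negative for all 30, with 21 called, beside 13.7% of all rows, and a median of -2.79.

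For the ERF label, 22 of 30 were higher and none lower in 2iL with RAS (median 2.43), beside 9.72% of all rows called. In FA with RAS 10 were higher by edgeR (median 2.04), beside 2.36% of all rows. DESeq2 called 22, and its share of all rows is not given here. Without RAS, Zscan4-ps1 and Duxf3 were higher in 2iL (median of the list 0.90), beside 13% of all rows called. In FA without RAS Tdpoz4 was higher and 3 were lower (median -0.74), beside 16.6% of all rows and the marker changes given above for that comparison. The 3 lower ones were Gm5662 (-1.76 ± 0.52), Gm2016 (-1.58 ± 0.58) and Gm8300 (-1.50 ± 0.54). For FA against 2iL, 8 were higher and 1 lower in ERF wild type cells with RAS, beside 24% of all rows called, and the same numbers were called without RAS, beside 16.5%. In cells labelled ERF knockout with RAS 11 were higher, beside 19.7% of all rows. In those without RAS, 0 were higher and 1 was lower (median -0.70), beside 24.9% of all rows. The 1 lower gene was AU015228 in all 3 cases. It, Tdpoz4, Zscan4-ps1 and Duxf3 are named after their values were seen. In ERF wild type cells without RAS, 4 of 27 were higher and 0 lower with the block, beside 15.9% of all rows, and 5 and 0 in the same libraries without it, beside 15.3%. In cells labelled ERF knockout with RAS, 15 of 28 were higher with the block, beside 20.0% of all rows, and 7 without it, beside 19.4%. In those without RAS, 7 of 28 were lower and 1 higher with the block, beside 25.0% of all rows, and 3 and 1 without it, beside 24.8%.

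**Figure D4:**
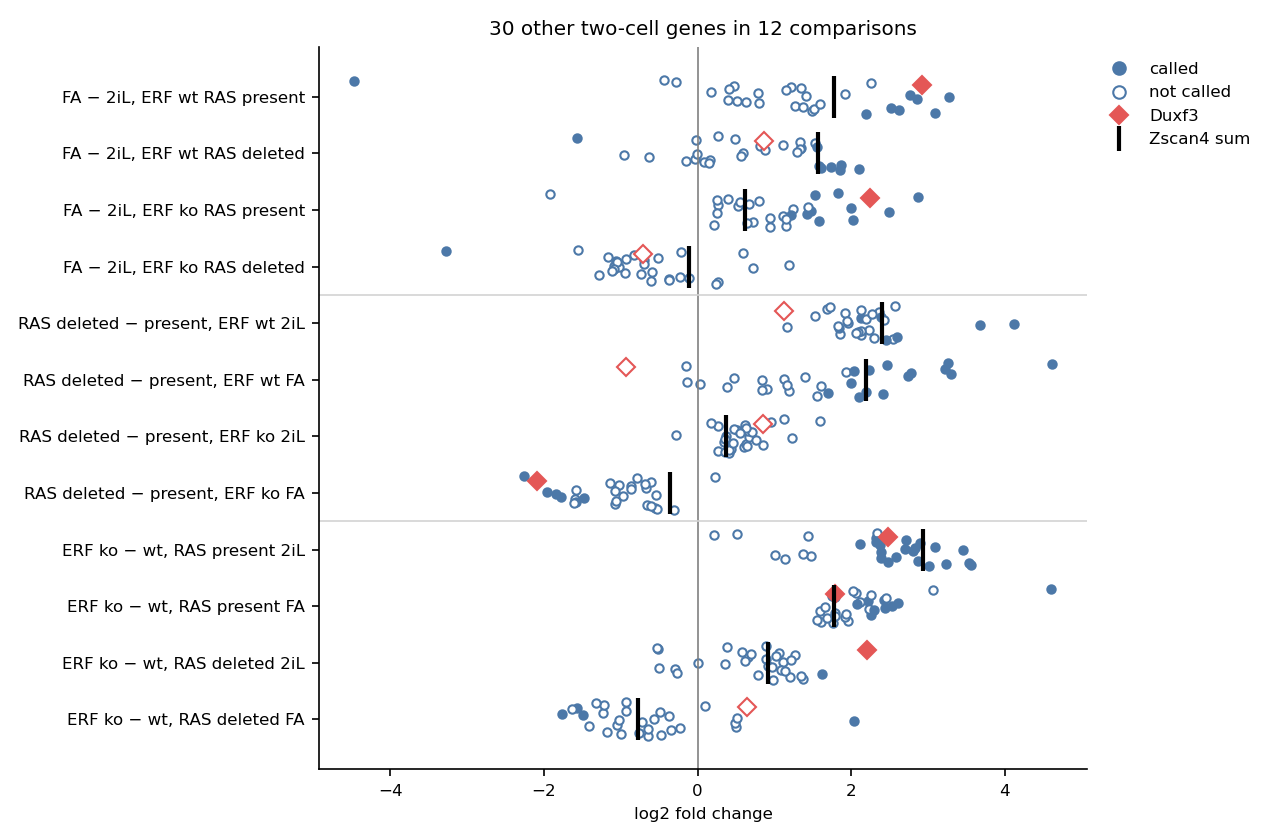
Fold changes of 30 other genes of the two-cell-like programme in the 12 comparisons, on a log2 axis; filled circles were called, the red diamond is Duxf3, filled where called, and the black bar is the Zscan4 sum. All 30 lie above 0 for RAS loss in ERF wild type cultures in 2iL, and 29 of 30 lie below 0 for RAS loss in cells labelled ERF knockout in FA.

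Duxf3, the row for the activator DUX, had another order of groups than the Zscan4 sum. It was 3.57 ± 0.51 CPM (n = 2) in ERF wild type cells with RAS in FA and 1.87 ± 0.84 CPM (n = 3) without RAS, a change of -0.94 ± 0.46 (adjusted p = 0.111), in the comparison where the Zscan4 sum rose by 2.20. It was higher in libraries labelled ERF knockout with RAS in 2iL (2.48 ± 0.53, adjusted p = 0.00157), without RAS in 2iL (2.21 ± 0.46, adjusted p = 8.29e-04) and with RAS in FA (1.79 ± 0.44, adjusted p = 0.0154). FA raised it in ERF wild type cells with RAS (2.92 ± 0.54, adjusted p = 1.63e-04) and in cells labelled ERF knockout with RAS (2.24 ± 0.40, adjusted p = 1.16e-04). Loss of RAS lowered it in the latter in FA (-2.09 ± 0.39, adjusted p = 6.14e-04). Per 1000 Zscan4 counts, Duxf3 was 57.6 ± 34.0 and 52.6 ± 11.4 in the FA groups with RAS, and 6.39 ± 1.62 and 15.8 ± 3.46 in those without. The 5 primitive endoderm markers were also highest in the FA groups with RAS, where they summed to 94.0 to 159 CPM and 95.0 to 96.5 CPM. They summed to 13.6 to 31.6 CPM in the FA groups without RAS, and their part in the Duxf3 result was not tested.

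Of 6 genes known to promote the state, Dppa4, Nelfa and Trp53 were called in none of the 12 comparisons, in which 0.211 to 24.9% of all rows were called. Some of their changes fell just short of 2-fold. Trp53 changed by 0.96 ± 0.15 for RAS deletion in ERF wild type cells in FA (edgeR adjusted p = 2.50e-05). For the ERF label in FA without RAS it changed by -0.94 ± 0.13 (adjusted p = 5.71e-06). Dppa4 changed by 0.90 ± 0.076 for FA against 2iL in ERF wild type cells with RAS (adjusted p = 1.22e-09). Tbx3, a T-box factor of naive cells, was lower in FA in all 4 lines. Within FA, Tbx3 was higher after RAS deletion in ERF wild type cells (22.3 ± 5.18 CPM, n = 2, with RAS and 118 ± 54.3 CPM, n = 3, without; 2.39 ± 0.30, edgeR adjusted p = 6.45e-06), the comparison in which the Zscan4 genes rose. It was lower after RAS deletion in cells labelled ERF knockout (-2.15 ± 0.28, adjusted p = 4.48e-05) and, without RAS, lower under that label than in ERF wild type cells (-4.25 ± 0.29, adjusted p = 3.71e-09). Gata2 was lower in FA in 3 of the 4 lines. Dppa2 rose in FA in cells labelled ERF knockout with RAS by 1.09 on the log2 scale. Of 22 genes known to restrain the state, such as the repressor scaffold Trim28, the histone methyltransferase Setdb1, the demethylase Kdm1a and the CAF-1 subunit Chaf1a, 0 were called in any of these comparisons by edgeR, beside the same 0.211 to 24.9% of all rows, and 0 by DESeq2. Their changes ran from -0.88 to 0.80 on the log2 scale, under 2-fold throughout. Even so, between 1 and 15 of the 22 had an adjusted p under 0.05. Between 3 and 17 had an unadjusted p under 0.05, as did 2978 to 12282 of 20372 rows over these comparisons.

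The cultures that stood apart did so across the programme, with the other two-cell genes deviating in the same direction as the Zscan4 sum. Against the 0.14 to 0.22 of ERF wild type replicate 1, the median chromosome 8 gene lay at -0.14 to -0.093 in the other ERF wild type cultures and at -0.033 to 0.033 in those labelled ERF knockout. No member is on that chromosome, and its part in the Zscan4 levels was not tested.

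Leaving out the ERF wild type cultures numbered 1, which reduces the RAS-present FA group to 1 library assumed to vary like the others, changed the counts. For RAS loss in ERF wild type cells the Zscan4 sum was then 2.54 in 2iL (adjusted p = 0.0941) and 2.12 in FA (adjusted p = 0.0766), with 0 and 1 members called and 3 and 2 list genes called higher, of 31 tested, beside 0.494% and 17.3% of all rows. For FA against 2iL it was 1.52 (adjusted p = 0.181) with RAS and 1.11 (adjusted p = 0.194) without. For the ERF label in 2iL with RAS all 5 members and 24 of 31 list genes were called higher, beside 10.4% of all rows. The interaction in FA was -2.48 (adjusted p = 0.0978), with no member and 6 list genes called, beside 11.5% of all rows. Leaving out the cultures labelled ERF knockout and numbered 3 gave 5 members called for RAS loss in ERF wild type 2iL cultures, beside 1.24% of all rows. For the ERF label in FA with RAS it put the Zscan4 sum past the test (2.08, adjusted p = 0.0486), with 2 members and 20 list genes called higher, beside 2.39% of all rows. These sets of cultures were picked after the data had been seen.

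Across the 23 libraries, deviations from the group mean tracked the Zscan4 sum closely for the other members, as a description with no test, since the points share libraries and depth. Pearson's r was 0.926 for Tcstv3 and 0.786 for Zfp352, and 0.977 to 0.987 for the 3 Zscan4 members, which are part of the sum. It was over 0.8 for 27 of the 30 other two-cell genes (median 0.929), 6 of which are Zscan4 rows, for 1 of the 6 promoting genes, Nelfa at 0.892 (median 0.409), and for 0 of the 22 restraining genes (median -0.138). Zscan4 rows were left out of the rankings that follow. Among the 15042 other rows with a mean of at least 1 CPM the median was -0.038, 132 exceeded 0.8 (0.878%) and 72 exceeded 0.9. The 10 rows most like the sum by this measure were the predicted genes Gm44660 (0.986), Gm2016, Gm8994, Gm47357, Gm47739, Gm47808, Gm48422, Gm48764, Gm48829 and Gm48271 (0.979), of which 8 kept a place in the top 10 with a pseudocount of 0.1. Over the 8 group means the most similar were Gm20767 (r = 0.983), Gm4027 (0.978), Gm44739, Gm6763, Gm44660, Gm47404, Gm48492, AC124237.1, Gm38947 and Gm45551 (0.966), and 5 of these kept their place.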

How the data were processed

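Total RNA depleted of ribosomal RNA was sequenced as 75-base read pairs from 23 cultures, per the labels' protocols. The submitters' processing notes name bcl2fastq 2.20.0, fastp 0.20.0, Salmon and mm10; the Salmon version and transcript set are not given in the sources used here. The authors deposited a matrix of whole-number counts for 53607 gene rows, and per library the estimated counts, TPM and effective length of each gene; the matrix equals the rounded estimated counts in every cell. Salmon divides reads among near-identical transcripts by a model, so the split among Zscan4 rows is an estimate. The deposited TPM was used only to compare levels between genes.

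Counts were tested with edgeR 4.0.16 (R 4.3.3, limma 3.58.1): low-count filter (20372 rows kept), TMM scaling, and a robust quasi-likelihood fit of 1 coefficient per group over all 23 libraries. Benjamini-Hochberg adjustment ran over all tested rows, and a call needs an adjusted p under 0.05 and at least 2-fold. The 12 comparisons and 6 interactions all use this fit; for the Zscan4 sum, rows Zscan4a to Zscan4f were replaced by their sum (20367 rows tested). The SE was taken as the absolute log2 fold change over the root of the F statistic. Totals of 16.2 to 29.9 M counts limit the precision of Zfp352 and Tcstv3 most, and the floor of 3 counts covers counting error only. The row Gm26917 took 17.6 to 27.9% of counts. Replicates of a group differed beyond sampling noise in all 22 pairs (chi-square per degree of freedom 3.04 to 44.9), so none was merged.

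Groups came from the labels. Same-numbered libraries were taken as pairs where all 3 correlations of their deviations exceeded 0.1: RAS deletion in 2iL in both ERF states (0.35 to 0.52 and 0.31 to 0.52), and the medium in ERF wild type without RAS (0.16 to 0.37) and in the labelled knockout with RAS (0.19 to 0.35) and without it (0.18 to 0.30). Alternatives were DESeq2 1.42.0, other scaling, filters, sums and subsets of libraries, an effective length offset, and the replicate block. The tests were tried on simulated data. Members and lists were chosen with earlier results of these data known. Named were the members, called list genes up to the 10 most abundant, and the 10 rows most like the Zscan4 sum by either measure. The ranking by likeness left out Zscan4 rows. The floxed gene is not reported here.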

Additional observations from a re-analysis of the deposited data

Results flagged for a closer look

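Differences between the effects of RAS deletion in the 2 ERF states, by the interaction test in FA, marked 3 results. The effect on the Zscan4 sum was lower in cells labelled ERF knockout than in ERF wild type cells by a log2 difference of -2.55 (edgeR adjusted p = 0.0372), that on Zscan4c by -2.95 (adjusted p = 0.0182) and that on Zscan4f by -2.49 (adjusted p = 0.0419). Both rows are part of the sum, so these are not separate results. No group had the 4 libraries that a test for a single outlying library needs.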

How the results depend on the processing

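For the Zscan4 sum, upper-quartile scaling, a sum that also takes the 3 rows Zscan4-ps1 to Zscan4-ps3 and dropping the 2-fold minimum kept every direction and call. Summing only Zscan4c, Zscan4d and Zscan4f gave 1.56 for the medium in ERF wild type cells with RAS (adjusted p = 0.0611). Fits of only the groups compared gave 2.21 for RAS deletion in ERF wild type cells in FA (adjusted p = 0.120) and -2.59 for the RAS by ERF interaction in FA (adjusted p = 0.0797), with fewer samples to estimate the spread. The replicate block gave 1.37 for the medium in ERF wild type cells without RAS (adjusted p = 0.0738). Against the fit over all 23 libraries it changed no other call of the sum. Against the same libraries without it, the block moved RAS deletion in ERF wild type cells in FA from 0.120 to an adjusted p of 5.35e-19, at 2.58. Replicate numbers did not pair the libraries of that comparison. With the block, RAS deletion called 207 rows in the labelled knockout in 2iL and 360 in ERF wild type, against 75 and 239 in the same libraries without it. Where numbers do not pair libraries, the block moved calls for the ERF label in FA with RAS from 266 to 443 in the same libraries, and for RAS deletion in ERF wild type cells in FA the other two-cell genes called higher from 2 to 21 of 27. For the ERF label in FA with RAS, DESeq2 gave 1.79 (adjusted p = 0.0238), and the fit without the labelled knockout cultures numbered 3 gave 2.08 (adjusted p = 0.0486). Leaving out the ERF wild type cultures numbered 1, an alternative chosen after seeing the data, gave 1.52 and 1.11 for the medium in ERF wild type cells with and without RAS, 2.54 and 2.12 for RAS deletion in 2iL and FA, and -2.48 for the interaction in FA, all short of the threshold. Without the low-count filter, 1.77 for the ERF label in FA with RAS, -2.04 for the RAS by ERF interaction in 2iL, and -1.16 and -1.65 for the medium by ERF interactions with and without RAS passed the threshold. That fit of 38260 rows gave every row a common spread (0.614 for the sum, against 26.4 in the filtered fit), so its p-values hold no spread of their own.

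Leaving out 1 library at a time moved the sum between 1.17 and 2.17, 0.90 and 1.95, 0.28 and 0.93, and -0.43 and 0.19 for the medium in ERF wild type cells with and without RAS and in the labelled knockout with and without RAS. It moved between 2.19 and 2.74 (2iL, ERF wild type), 0.04 and 0.69 (2iL, labelled knockout), 1.53 and 2.80 (FA, ERF wild type) and -0.64 and -0.06 (FA, labelled knockout) for RAS deletion. For the ERF label the ranges were 2.62 to 3.30 and 0.60 to 1.23 in 2iL with and without RAS, and 1.39 to 2.39 and -1.15 to -0.10 in FA. The RAS by ERF interactions ran from -2.37 to -1.71 in 2iL and from -3.16 to -1.88 in FA. The medium by RAS interactions ran from -0.87 to 0.41 in ERF wild type and -1.05 to -0.39 in the labelled knockout, and the medium by ERF ones from -1.57 to -0.57 with RAS and -2.06 to -1.01 without. Of 138 such fits, 5 changed sign, 2 for the medium in the labelled knockout without RAS and 3 for the medium by RAS interaction in ERF wild type. Of the members' calls, 4 were lost in fits of only the groups compared: Zscan4c (2.46, adjusted p = 0.0833), Zscan4d (2.33, adjusted p = 0.13) and Zscan4f (2.14, adjusted p = 0.128) for RAS deletion in ERF wild type cells in FA, and Zscan4f for the RAS by ERF interaction in FA (-2.53, adjusted p = 0.0828). Without the ERF wild type cultures numbered 1, 9 of 17 were lost. Zfp352 for the medium in the labelled knockout with RAS was lost with an effective length offset (1.11, adjusted p = 0.0560), and Tcstv3 for RAS deletion in ERF wild type 2iL cultures was lost when summed with its near copy Tcstv1 (2.62, adjusted p = 0.0740). The causes were not tested.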
